A study of Mus musculus with 10 samples.

Results

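A set of 10 genes of tracheal cartilage was followed: Acan, Matn1, Matn3, Matn4, Cnmd, Chad, Sox9, Hapln1, Snorc and Ucma. They were chosen by name as genes typical of cartilage cells, with earlier results of these data known. They are 10 of the 22180 genes measured. The tissue was the mesenchyme beneath the tracheal epithelium, collected by laser-capture microdissection from stained frozen sections of male FVB/NJ mice aged 9 weeks. One group of 5 mice had breathed chlorine gas at 235 ppm for 1 hr in a whole-body exposure and was sampled at 4 days. The other group of 5 mice was unexposed, and both groups had the same strain, sex and age. Sections of each mouse were pooled, so each array stands for 1 animal. Each gene was read by 1 probe set for all 10 members, and its value is a log2 intensity, on which a difference of 1 is a 2-fold difference.

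The trachea is held open by C-shaped rings of hyaline cartilage, made by chondrocytes. In this matrix aggrecan, the large proteoglycan encoded by Acan, binds hyaluronan with the help of a link protein encoded by Hapln1, and collagen fibrils of types II, IX and XI give it tensile strength. Matrilins join these networks, and SOX9 is the transcription factor that turns on much of the chondrocyte program.

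Of the 10 genes, 4 were called lower in exposed mice and 0 higher (limma, Benjamini-Hochberg adjusted p under 0.05 over all genes). These were Cnmd, Matn1, Matn3 and Chad, with folds from 2.06 to 5.31. Over all genes, 4.97% were called lower and 5.85% higher. The other 6 genes, Acan, Hapln1, Snorc, Ucma, Sox9 and Matn4, did not pass. At an unadjusted p under 0.05, 7 were lower and 0 higher, against 11.9% and 12.4% of all genes. The change was negative for 9 of the 10 genes, with a median log2 change of -1.09, against 50.6% of all genes negative and a median of -0.0. Every exposed mouse lay below every unexposed mouse for 2 genes, Cnmd and Matn1, and above for 0. Over all genes the same held for 5.06% (below) and 5.89% (above). In bulk tissue, fewer chondrocytes in a capture and less RNA per chondrocyte cannot be told apart.

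**Figure D1:**
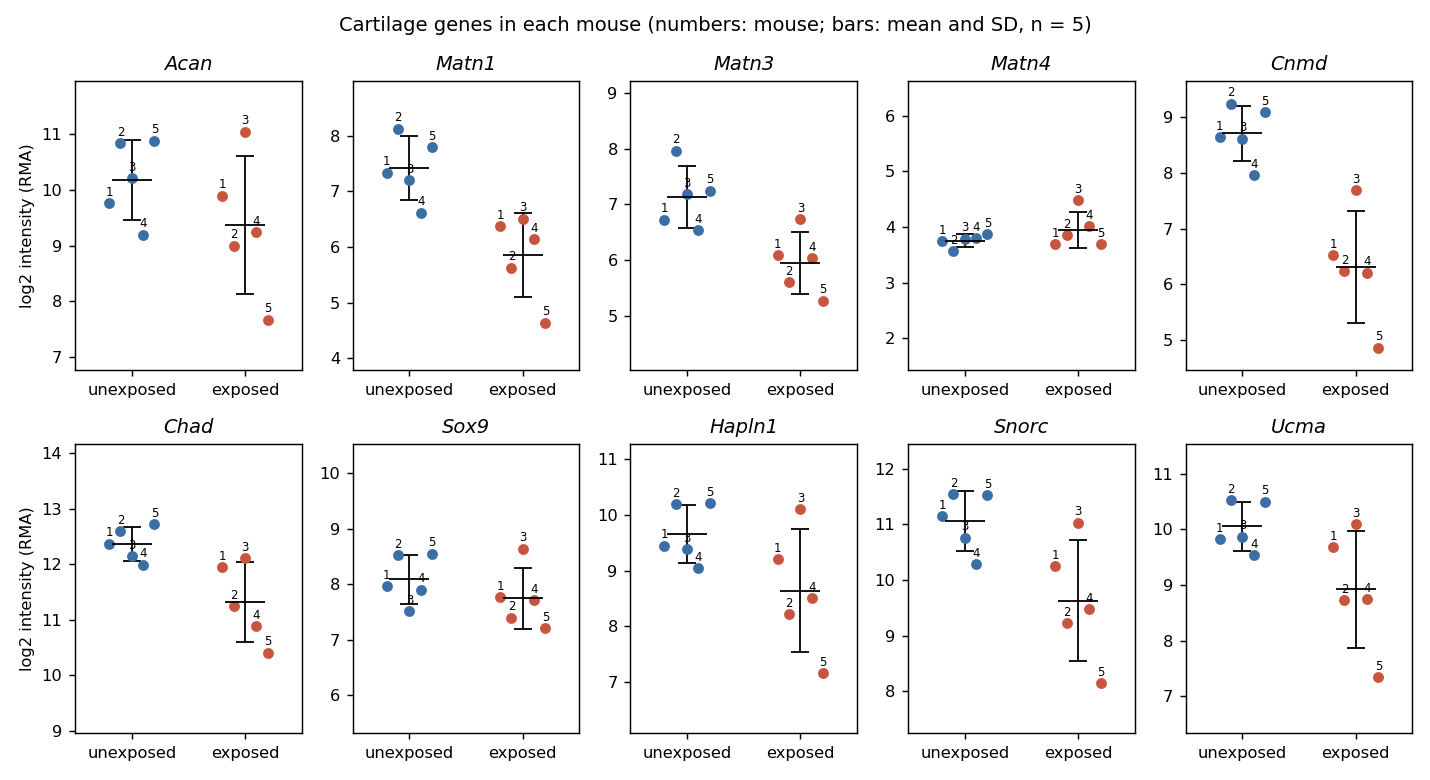
Log2 intensity (vertical axis) of the 10 cartilage genes, 1 panel each, in the 5 exposed and 5 unexposed mice. Points are mice, horizontal bars are group means and vertical bars are SDs. In the Cnmd and Matn1 panels the groups do not overlap, whereas exposed mouse 3 has the highest Acan value of all 10 mice, 11.05, and exposed mouse 5 the lowest, 7.67.

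Cnmd encodes chondromodulin, a cartilage glycoprotein that inhibits the growth of blood vessels. Its log2 intensity was 6.53, 6.24, 7.69, 6.21 and 4.86 in exposed mice 1 to 5, and 8.64, 9.25, 8.62, 7.96 and 9.09 in unexposed mice 1 to 5. The highest exposed mouse, mouse 3, stood below the lowest unexposed mouse, mouse 4. The means were 6.30 ± 1.01 (SD, n = 5) and 8.71 ± 0.50 (SD, n = 5), a log2 change of -2.41 (SE 0.43, 95% interval -3.34 to -1.47, adjusted p = 0.00415). This is a level 5.31-fold higher in unexposed mice. The call held with each of the 10 mice left out in turn (adjusted p 0.000736 to 0.0136).

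The matrilins are adaptor proteins of the cartilage matrix. Matn1, the matrilin first described in cartilage, measured 6.38, 5.63, 6.51, 6.14 and 4.64 in exposed mice and 7.34, 8.13, 7.20, 6.62 and 7.79 in unexposed mice. The groups did not overlap, although the gap between exposed mouse 3 and unexposed mouse 4 was small. The log2 change was -1.56 (SE 0.36, 95% interval -2.35 to -0.76, adjusted p = 0.0187), with means of 5.86 ± 0.76 (SD, n = 5) and 7.42 ± 0.58 (SD, n = 5). The call held in all 10 fits that left out a mouse, with adjusted p from 0.0145 to 0.0484.

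Matn3, in which mutations cause a skeletal dysplasia, measured 6.09, 5.60, 6.74, 6.04 and 5.27 in exposed mice and 6.73, 7.97, 7.19, 6.54 and 7.25 in unexposed mice. The groups overlapped by exposed mouse 3 alone, and 4 of 5 exposed mice were below the lowest unexposed mouse. Its log2 change was -1.19 (SE 0.30, 95% interval -1.85 to -0.53, adjusted p = 0.0276), 2.28-fold. The call was lost in 6 of the 10 fits that left out a mouse (exposed 2, 4 or 5, unexposed 2, 3 or 5), with adjusted p from 0.0101 to 0.0652 over the 10.

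Matn4, a matrilin found in many tissues besides cartilage, was near the low end of the arrays. It measured 3.69, 3.85, 4.48, 4.02 and 3.69 in exposed mice and 3.75, 3.57, 3.79, 3.80 and 3.87 in unexposed mice, against array medians of 5.47 to 5.54 over all genes. Exposed mice 3 and 4 were above every unexposed mouse and the other exposed mice lay among them. The log2 change was 0.19 (SE 0.15, adjusted p = 0.496). Scanner files were not used here, so no limit of detection was set. Whether these low values lie above background is not known. The other 9 genes had unexposed means above every array median.

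Acan and Hapln1 encode the proteoglycan and the link protein of the aggrecan aggregate, and neither passed the test. Acan measured 9.90, 9.00, 11.05, 9.25 and 7.67 in exposed mice and 9.77, 10.85, 10.22, 9.20 and 10.89 in unexposed mice. Exposed mouse 3 was above every unexposed mouse and exposed mice 2 and 5 were below every one, so that exposed mice spanned 10.4-fold in Acan and unexposed mice 3.23-fold. The log2 change was -0.81 (SE 0.54, 95% interval -2.0 to 0.37, adjusted p = 0.408). Hapln1 measured 9.21, 8.22, 10.10, 8.51 and 7.15 in exposed mice and 9.45, 10.19, 9.39, 9.05 and 10.21 in unexposed mice. Its groups overlapped, with 3 exposed mice below the lowest unexposed mouse, and its log2 change was -1.01 (SE 0.46, adjusted p = 0.203).

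Chad, Snorc and Ucma encode further products of chondrocytes. Chondroadherin, from Chad, is a leucine-rich protein that binds collagen and chondrocytes. Chad measured 11.94, 11.25, 12.11, 10.89 and 10.41 in exposed mice and 12.37, 12.59, 12.15, 11.99 and 12.72 in unexposed mice, and 4 of 5 exposed mice were below the lowest unexposed mouse. Its log2 change was -1.04 (SE 0.30, 95% interval -1.70 to -0.39, adjusted p = 0.0448), 2.06-fold. The call was lost in 8 of the 10 fits that left out a mouse, all but those without exposed 1 or exposed 3 (adjusted p 0.0154 to 0.107). It was also lost when the arrays were quantile-normalized again (adjusted p = 0.0708) and with trend and robust settings of eBayes (0.0764).

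Snorc, which encodes a small transmembrane proteoglycan of chondrocytes, measured 10.25, 9.22, 11.03, 9.48 and 8.15 in exposed mice and 11.15, 11.55, 10.76, 10.29 and 11.53 in unexposed mice. Exposed mouse 3 was the only exposed mouse within the unexposed range. The log2 change, -1.43 (SE 0.46, 95% interval -2.44 to -0.43, 2.70-fold), did not pass (adjusted p = 0.0714). Ucma, which encodes a secreted protein of immature chondrocytes, measured 9.68, 8.73, 10.09, 8.75 and 7.35 in exposed mice and 9.83, 10.53, 9.87, 9.54 and 10.50 in unexposed mice. Exposed mice 2, 4 and 5 were below every unexposed mouse, and the log2 change of -1.13 (SE 0.43) did not pass (adjusted p = 0.129). Without exposed mouse 3, Snorc (adjusted p = 0.0151), Ucma (0.0442) and Hapln1 (0.0433) passed as lower, which made 7 of 10 genes, where 4.85% of all genes were called lower and 5.94% higher. Snorc also passed with dim genes left out (adjusted p = 0.0492) and with array weights (0.0244).

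Sox9 measured 7.76, 7.40, 8.64, 7.72 and 7.21 in exposed mice and 7.96, 8.52, 7.51, 7.90 and 8.55 in unexposed mice. The exposed range enclosed the unexposed one. The log2 change was -0.34 (SE 0.27, 95% interval -0.94 to 0.25, adjusted p = 0.5). At this spread the data do not separate a fall of nearly 1 log2 unit from no change.

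RefSeq promoter windows were at hand for 8 of the 10 genes (9 windows, as Matn4 has 2 starts), but not for Sox9 and Snorc. The 250 bases before the start site are shown for the 4 genes called lower and for Acan, the comparison gene below that did not pass, so that the upstream sequence can be read beside the values. Coordinates are those of assembly GRCm38.p6. Capitals mark matches on either strand to any of 4 motifs. The motif ACAAAG and the shorter motif ACAAT are of the type bound by SOX proteins, the motif TATAAA is a core of the TATA box, and the motif GGGCGG is the GC box.
Cnmd, chr14:79662184-79662433, minus strand: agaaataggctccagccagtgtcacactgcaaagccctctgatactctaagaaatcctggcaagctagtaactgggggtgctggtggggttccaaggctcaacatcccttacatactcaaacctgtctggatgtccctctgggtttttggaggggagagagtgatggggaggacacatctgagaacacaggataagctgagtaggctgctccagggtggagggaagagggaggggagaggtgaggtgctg
Matn1, chr4:130944135-130944384, plus strand: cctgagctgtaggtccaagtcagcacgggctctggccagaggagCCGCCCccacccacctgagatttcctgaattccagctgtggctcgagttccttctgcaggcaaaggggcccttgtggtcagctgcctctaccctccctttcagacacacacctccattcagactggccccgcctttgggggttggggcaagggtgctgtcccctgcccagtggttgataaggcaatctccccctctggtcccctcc
Matn3, chr12:8947679-8947928, plus strand: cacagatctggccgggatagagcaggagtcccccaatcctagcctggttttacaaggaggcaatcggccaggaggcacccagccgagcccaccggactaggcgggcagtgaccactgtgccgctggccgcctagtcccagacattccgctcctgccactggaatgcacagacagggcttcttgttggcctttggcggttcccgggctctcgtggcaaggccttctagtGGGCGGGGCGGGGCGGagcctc
Chad, chr11:94564797-94565046, plus strand: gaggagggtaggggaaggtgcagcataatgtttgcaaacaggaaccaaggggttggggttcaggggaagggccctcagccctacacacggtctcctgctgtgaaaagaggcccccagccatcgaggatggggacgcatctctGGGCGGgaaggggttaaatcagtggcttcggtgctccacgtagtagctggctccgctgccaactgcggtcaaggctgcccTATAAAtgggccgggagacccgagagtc
Acan, chr7:79052976-79053225, plus strand: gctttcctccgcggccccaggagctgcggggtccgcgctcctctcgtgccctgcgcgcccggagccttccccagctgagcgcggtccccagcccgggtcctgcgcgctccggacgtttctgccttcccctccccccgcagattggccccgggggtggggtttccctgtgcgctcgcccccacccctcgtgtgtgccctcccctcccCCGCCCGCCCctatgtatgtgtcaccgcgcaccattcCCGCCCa
Cnmd, the gene with the greatest change of the 10, had no match to any of the 4 motifs in its window. Chad had TATAAA 28 bases before its start, and its window was the only one of the 9 with that motif, which 13.6% of all 32851 windows hold. GGGCGG stood in 5 of the 9 windows, against 35.7% of all windows. Its matches overlapped each other in Matn3 (22, 17 and 12 bases before the start) and in Acan (44 and 40 bases before). ACAAAG was in 0 of the 9 windows (18.7% of all) and ACAAT in 1, that of Hapln1 (31.0% of all). These are letter matches within a short window and say nothing of binding.

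The genes varied together from mouse to mouse. Exposed mouse 5 was the lowest of all 10 mice for 9 of the 10 genes, and exposed mouse 3 was the highest exposed mouse for all 10. The mean of the 10 genes was 8.14, 7.51, 8.84, 7.70 and 6.64 in exposed mice and 8.70, 9.32, 8.67, 8.29 and 9.24 in unexposed mice. Exposed mouse 3 therefore lay among the unexposed mice on this mean, and exposed mouse 5 far below the rest. With each value taken as its difference from its group mean, the 36 pairs of genes other than Matn4 correlated over the 10 mice at r from 0.72 to 0.99 (median 0.91). Matn4 correlated with the others at 0.33 to 0.61. These correlations are descriptions over the same 10 arrays.

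The spread was wider among exposed mice. The median SD of the 10 genes was 0.89 among exposed mice and 0.51 among unexposed mice, and 9 of the 10 genes had the larger SD in exposed mice. Over all genes the median SDs were 0.22 and 0.19, and 60.6% had the larger SD in exposed mice. As the genes varied together, their SDs are not separate observations. Exposed mouse 3 was the highest of its group for 10 genes and exposed mouse 5 the lowest for 9. The captures were pooled from sections and the labels do not give how much cartilage each held. Its part in this spread was not tested.

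Because the captures may differ in cartilage, each gene was also set against Acan in the same mouse, a choice made after values were seen and given without a test. The log2 difference of Cnmd from Acan was -3.37, -2.77, -3.36, -3.05 and -2.81 in exposed mice and -1.13, -1.61, -1.60, -1.24 and -1.80 in unexposed mice. The groups were well apart, and exposed mice 3 and 5, the extremes in Acan, lay with the other exposed mice. The means, -3.07 ± 0.29 (SD, n = 5) and -1.47 ± 0.28 (SD, n = 5), differ by -1.60, or 3.02-fold. The level of such a difference depends on the probe sets, and only its shift between mice is read.

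The log2 difference of Snorc from Acan was 0.35, 0.22, -0.02, 0.22 and 0.48 in exposed mice and 1.38, 0.70, 0.54, 1.09 and 0.63 in unexposed mice. These groups did not overlap either, but exposed mouse 5 (0.48) came close to unexposed mouse 3 (0.54). The means differ by -0.62, or 1.54-fold. How many of all genes would not overlap when set against Acan was not counted. For the other 7 genes the groups overlapped. The shift was -0.74 for Matn1, -0.38 for Matn3, -0.32 for Ucma, -0.23 for Chad and -0.20 for Hapln1. It was 0.47 for Sox9 and 1.0 for Matn4, whose own level was low and nearly flat while Acan varied. Subtraction takes each gene to follow Acan 1 for 1, which moves genes that varied less than Acan upward. Among exposed mice the SD was 1.24 for Acan, 0.55 for Sox9, 0.56 for Matn3 and 0.71 for Chad. With Acan instead as a covariate in the fit, the changes were -0.01 for Sox9, -0.79 for Matn3 and -0.65 for Chad.

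**Figure D2:**
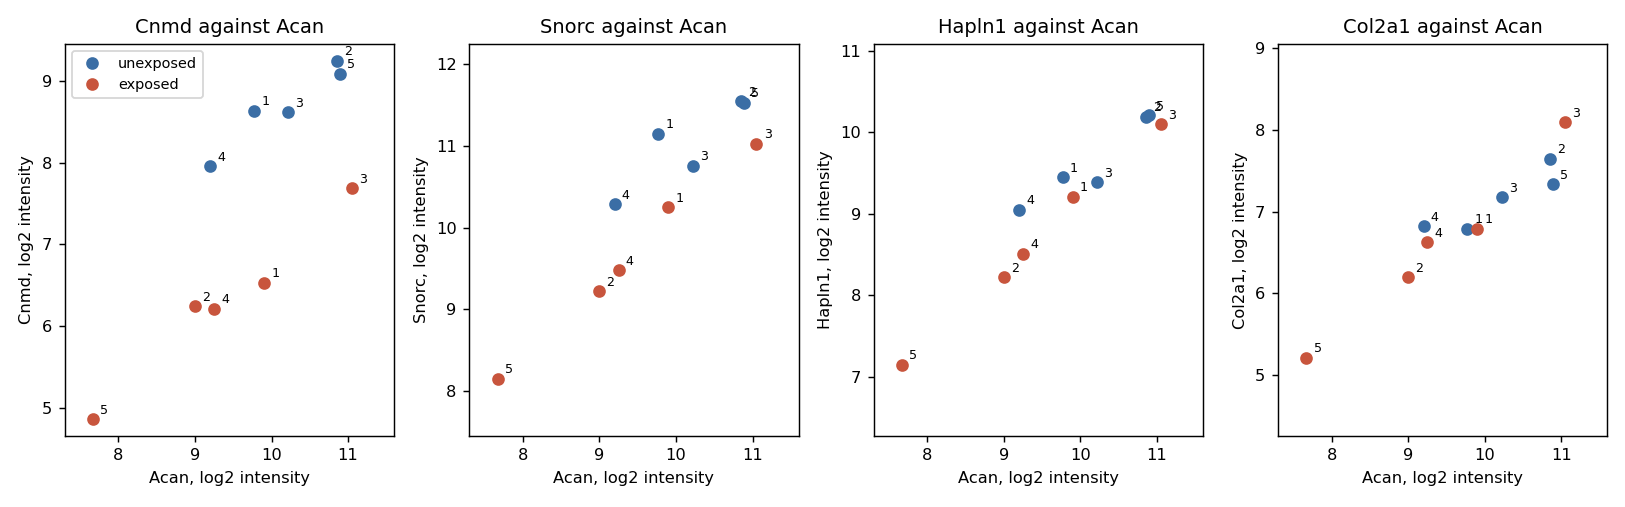
Log2 intensity of Cnmd, Snorc, Hapln1 and Col2a1 (vertical axes) against that of Acan (horizontal axis) in each of the 10 mice, exposed and unexposed in separate colours. The exposed mice form a line below the unexposed mice for Cnmd (a log2 difference of -1.60 relative to Acan). For Hapln1 (-0.20) and Col2a1 (0.24) the groups overlap in this difference.

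The test planned for this purpose added to the fit the mean of 20 other cartilage genes in each mouse, as a covariate with the same slope in both groups. That mean was 7.28, 7.0, 7.94, 6.99 and 6.39 in exposed mice and 7.45, 7.90, 7.38, 7.16 and 7.69 in unexposed mice, a difference of -0.40 with overlap. With it, 5 of the 10 genes were called lower and 0 higher, where 4.3% of all genes were called lower and 4.77% higher. Cnmd kept the greatest change, -1.71 (SE 0.11, 95% interval -1.96 to -1.45, adjusted p = 4.88e-05), followed by Matn1 at -1.02 (SE 0.20, adjusted p = 0.0122). Matn3 (-0.75, adjusted p = 0.0253), Snorc (-0.69, 0.0166) and Chad (-0.60, 0.0426) also passed. Acan was at 0.07 (95% interval -0.30 to 0.44, adjusted p = 0.862) and Sox9 at 0.05 (adjusted p = 0.901), and Hapln1 (-0.26, 0.289) and Ucma (-0.44, 0.151) did not pass.

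The 20 genes include Cilp and Prg4, which rose after exposure. Without them the covariate left 2 genes lower, Cnmd (-1.47, adjusted p = 0.000278) and Matn1 (-0.83, adjusted p = 0.0496), where 3.42% of all genes were called lower and 3.85% higher. Matn3, Chad and Snorc did not pass in that fit (adjusted p 0.0899, 0.163 and 0.151). With Acan as the covariate, Cnmd (-1.78, adjusted p = 5.38e-05), Matn1 (-1.06, 0.00485), Snorc (-0.77, 0.0114), Matn3 (-0.79, 0.015) and Chad (-0.65, 0.03) passed, where 4.43% of all genes were called lower and 4.85% higher. Both of these covariates were chosen after the data were seen. Cnmd and Matn1 were thus the genes called lower with no covariate and with each of the 3.

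**Figure D3:**
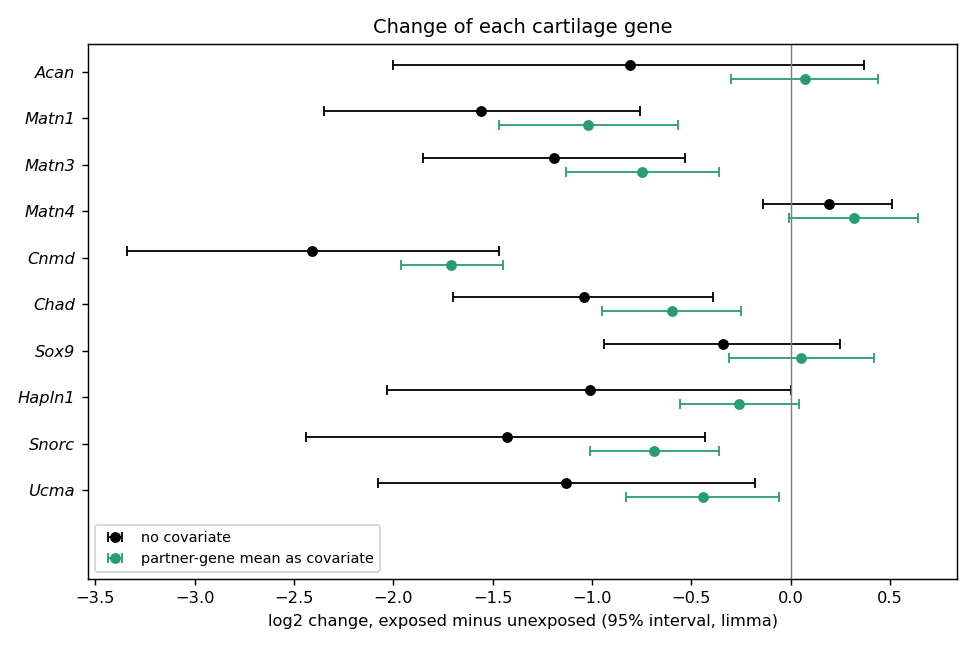
Log2 change, exposed minus unexposed (horizontal axis), of the 10 cartilage genes with its 95% interval, without a covariate and with the mean of the 20 other cartilage genes (partner genes) as a covariate. Cnmd is the farthest from 0 in both fits (-2.41 and -1.71), and Acan moves from -0.81 to 0.07.

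Those 20 other cartilage genes comprise collagens, cartilage glycoproteins and secreted factors. Of them 1 was called lower, 2 were called higher and 17 did not pass, with a median log2 change of -0.50 and 16 negative changes. Over all genes, 4.97% were called lower, 5.85% were called higher and 50.6% had a negative change. At an unadjusted p under 0.05 in limma, 8 of the 20 were lower and 2 higher, against 11.9% and 12.4% of all genes. The collagens of types II, IX and XI did not pass. Col2a1, the main collagen of cartilage, measured 6.79, 6.20, 8.10, 6.63 and 5.21 in exposed mice and 6.79, 7.65, 7.18, 6.82 and 7.34 in unexposed mice, spanning the unexposed range on both sides (log2 change -0.57, 95% interval -1.49 to 0.35, adjusted p = 0.462). Col9a1 (-0.78, adjusted p = 0.0888), Col9a2 (-0.10, 0.813), Col9a3 (-0.65, 0.262), Col11a1 (-0.72, 0.274) and Col11a2 (-0.27, 0.532) were not called.

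Mia, a small protein secreted by chondrocytes, was the gene of these 20 called lower. It measured 8.69, 8.21, 9.54, 8.00 and 6.77 in exposed mice and 10.32, 10.32, 9.42, 9.38 and 10.19 in unexposed mice. Exposed mouse 3 again stood within the unexposed range. The log2 change was -1.68 (SE 0.43, adjusted p = 0.0267), 3.21-fold, and the call was lost in 5 of the 10 fits that left out a mouse (exposed 2 or 4, unexposed 1, 2 or 5), with adjusted p from 0.00558 to 0.0685. It was also lost with trend and robust settings of eBayes (0.0547). Comp, the pentameric cartilage oligomeric matrix protein, had a log2 change of -1.42 that did not pass (adjusted p = 0.0775), nor did the cytokine-like Cytl1 (-0.82, 0.0534) or the chondroadherin-like Chadl (-0.91, 0.0517).

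Cilp and Prg4 went the other way. Cilp, which encodes the cartilage intermediate layer protein, measured 6.68, 6.74, 6.69, 6.58 and 6.90 in exposed mice and 5.22, 4.59, 5.59, 5.09 and 5.65 in unexposed mice, which is 2.81-fold higher in exposed mice (log2 change 1.49, SE 0.18, adjusted p = 0.000421). Prg4, which encodes the lubricant lubricin, measured 11.47, 11.53, 11.34, 11.46 and 11.55 in exposed mice and 10.30, 10.68, 9.86, 9.72 and 10.30 in unexposed mice, 2.46-fold higher in exposed mice (log2 change 1.30, SE 0.16, adjusted p = 0.000528). The groups did not overlap for either gene, and exposed mice 3 and 5 stood close to the other exposed mice, unlike in Acan. Fibroblasts and synovial cells are also known to express both genes.

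Regulators of chondrocytes were measured for 16 of 18 listed genes, of which 3 were called lower and 0 higher. The shares called over all genes were 4.97% lower and 5.85% higher. At an unadjusted p under 0.05 in limma, 6 regulators were lower and 0 higher, against 11.9% and 12.4% of all genes. Bmpr1b, a BMP receptor needed for cartilage formation, measured 5.21, 4.27, 4.32, 4.33 and 3.72 in exposed mice and 5.80, 6.48, 5.66, 6.12 and 5.87 in unexposed mice. The groups did not overlap, and exposed mouse 3 was in the middle of its group (log2 change -1.61, SE 0.24, adjusted p = 0.00163, 3.06-fold). All exposed values of Bmpr1b lay below the array medians of 5.47 to 5.54 over all genes, and no limit of detection was set. Fgfr3, a receptor that restrains chondrocyte growth, was 1.71-fold lower (log2 change -0.77, SE 0.17, adjusted p = 0.0124). Zbtb20, a zinc-finger transcriptional repressor, had a change of -0.47 (SE 0.11, adjusted p = 0.0213) and lost its call in 5 of the 10 fits that left out a mouse (exposed 2, 4 or 5, unexposed 2 or 5; adjusted p 0.00511 to 0.0551). The SOX9 partners Sox5 (-0.57, adjusted p = 0.198) and Sox6 (-0.69, 0.0696) did not pass.

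Among genes of chondrocyte hypertrophy and mineral, 10 of 13 listed were measured, 1 was called lower, 1 higher and 8 not. The shares called over all genes were 4.97% lower and 5.85% higher. At an unadjusted p under 0.05 in limma, 1 was lower and 3 higher, against 11.9% and 12.4% of all genes. Sp7, an osteoblast and late chondrocyte transcription factor, had a log2 change of -0.73 (adjusted p = 0.0445), lost in 7 of the 10 fits that left out a mouse (kept without exposed 3, unexposed 3 or unexposed 4; 0.0149 to 0.106). Mgp, an inhibitor of mineral deposition, had a change of 0.28 (adjusted p = 0.0443), lost in 9 of the 10 (kept without exposed 1; 0.0492 to 0.105). Neither Sp7 nor Mgp passed with any of the 3 covariates or with repeated quantile normalization. Sp7 was itself dim and was not part of the fit with dim genes left out. Col10a1, the collagen of hypertrophic cartilage, did not pass (-0.95, adjusted p = 0.31).

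Enzymes and transporters that build chondroitin sulfate, the side chains of aggrecan, were mostly not called. Of 23 measured genes, 1 was called lower, 0 higher and 22 did not pass, with a median log2 change of -0.04. Over all genes, 4.97% were called lower and 5.85% higher. At an unadjusted p under 0.05 in limma, 2 were lower and 1 higher, against 11.9% and 12.4% of all genes. The gene called was Slc26a2, the sulfate transporter of chondrocytes (-0.57, SE 0.09, adjusted p = 0.00274, 1.48-fold). Papss2, which makes the sulfate donor, had a change of -0.93 that did not pass (adjusted p = 0.114).

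The list of cartilage matrix degradation, which also holds the protease inhibitor Timp3, had the opposite balance. Of 16 measured genes, 5 were called higher, 1 lower and 10 not (median log2 change 0.30). Over all genes, 5.85% were called higher and 4.97% lower. At an unadjusted p under 0.05 in limma, 8 of the 16 were higher and 1 lower, against 12.4% and 11.9% of all genes. Mmp14, a membrane-bound collagenase, was 2.86-fold higher in exposed mice (log2 change 1.52, SE 0.13, adjusted p = 5.45e-05). Mmp3, stromelysin, was 3.31-fold higher (1.73, adjusted p = 0.00758), Adamts4, an aggrecanase, 1.81-fold (0.86, 0.0116), and Adamts15 1.77-fold (0.82, 0.0271). The unexposed means of Mmp3 (5.27) and Adamts4 (4.82) were below the array medians over all genes, and no limit of detection was set. The Adamts15 call was lost in 4 of the 10 fits that left out a mouse (exposed 5, unexposed 1, 2 or 4; adjusted p 0.0144 to 0.0709). The gene called lower was Timp3, the inhibitor of these proteases (-0.76, adjusted p = 0.00241), and no protease was called lower. Ctsk, cathepsin K, was the fifth gene called higher (0.62, adjusted p = 0.0248), named after its value was seen, and it lost the call in 6 of the 10 (adjusted p 0.00788 to 0.0636). Adamts5, the other main aggrecanase, did not pass (0.32, adjusted p = 0.0722), nor did the collagenase Mmp13 (-0.39, 0.812). With the 20-gene mean as a covariate, Adamts5 passed as higher (0.39, adjusted p = 0.0418) and Ctsk did not (0.55, 0.0759). Many of these proteases are also made by fibroblasts and leukocytes.

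**Figure D4:**
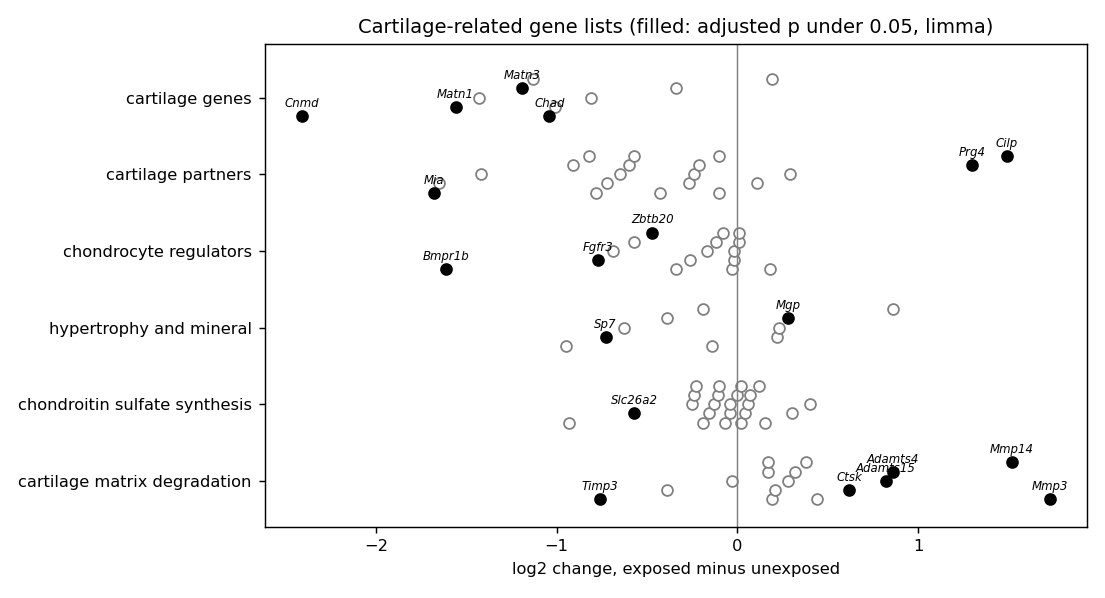
Log2 change, exposed minus unexposed, of each measured gene of 6 lists, 1 list a line (the cartilage partners are the 20 other cartilage genes), with filled points for genes called at adjusted p under 0.05. The 10 cartilage genes have a median of -1.09, the 20 other cartilage genes -0.50, and the degradation list 0.30.

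The 12 genes outside the 10 that were most like their mean over the 10 mice, by Pearson r of values taken as differences from the group mean, were Col10a1 (0.985), Comp (0.983), Col11a1 (0.976), S100b (0.974), Ppa1 (0.973), Kdelr3 (0.973), Trps1 (0.970), Smad9 (0.968), Cst3 (0.967), Chst5 (0.966), Colgalt2 (0.962) and Pla2g5 (0.962). Col10a1, Comp and Col11a1 encode matrix proteins of cartilage, and S100b a calcium-binding protein of chondrocytes and of glia. Of the 12, Cst3, which encodes cystatin C, was called lower (log2 change -0.36, adjusted p = 0.0322), a call lost in 7 of the 10 fits that left out a mouse (0.0209 to 0.0781). Cst3 also lost its call with each of the 3 covariates (adjusted p 0.082, 0.0646 and 0.175). Kdelr3, Trps1 and Smad9 had changes of 0.14, -0.12 and -0.36 that did not pass. Kdelr3, a receptor that returns proteins to the endoplasmic reticulum, was called higher with the 20-gene mean as a covariate (0.38, adjusted p = 0.0311). It was also called with Acan (0.35, 0.033) and with the mean without Cilp and Prg4 (0.46, 0.0218). The 12 genes were picked for following the 10-gene mean in these same arrays, and that mean correlated with the 20-gene mean at 0.99. A small spread around a covariate thus followed from the choice, and these calls are not separate support.

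Markers of other cell types were read beside the cartilage genes. Over the 10 mice, with group means removed, the mean of the 10 cartilage genes correlated at 0.99 with the mean of the 20 other cartilage genes, and at -0.61 with that of 6 epithelial markers. The epithelial mean was 8.27 in exposed mouse 3 against 8.93 to 9.26 in the other exposed mice, and 8.68 to 9.14 in unexposed mice. It differed between the groups by -0.02, with 0 of 6 markers called (1 higher at an unadjusted p under 0.05 in limma). Transcripts of epithelium were thus present in captures of both groups.

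The mean of 8 fibroblast markers was 10.24, 10.56, 10.82, 10.50 and 10.39 in exposed mice and 10.06, 9.99, 10.25, 10.06 and 9.95 in unexposed mice, with 3 of 8 called higher (Col1a1, Col3a1 and Pdgfra). Exposed mouse 3 was highest in this mean as well as in Acan. The labelled tissue was thus matched by its fibroblast markers and by smooth muscle, whose 8 markers had means of 9.88 to 10.54 and 9.67 to 10.63, with 0 called. For leukocyte markers the exposed means ran from 6.80 to 7.81 and the unexposed ones from 6.73 to 7.39 (2 of 6 called higher), and for endothelial markers from 6.93 to 7.93 and from 6.74 to 7.41 (1 of 6 higher). Skeletal muscle (5.17 to 5.42 and 5.04 to 5.56, 1 of 8 lower) and thyroid (4.63 to 4.91 and 4.71 to 4.92, 0 of 5) were near or below the array medians, and adipocyte means were 5.64 to 7.77 and 6.99 to 7.67 (0 of 5). The smooth muscle, thyroid and adipocyte lists also had 0 genes at an unadjusted p under 0.05 in limma. By that count 6 fibroblast, 2 leukocyte and 3 endothelial markers were higher and 0 lower. For skeletal muscle 1 marker was lower and 1 higher. Over all genes, 11.9% were lower and 12.4% higher at that level, and 4.97% were called lower and 5.85% higher. Fibroblast, leukocyte and endothelial markers thus held higher calls, and skeletal muscle 1 lower call, in the same contrast as the cartilage genes. The part of these cell types in the cartilage result was not tested.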

How the data were processed

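Expression was measured on Affymetrix arrays from 5 chlorine-exposed and 5 unexposed mice, 1 array each. The authors deposited log2 values summarised by robust multi-array averaging (RMA) with Partek 6.6, per the submitters' processing notes. The labels do not state RMA settings, and scanner files were not used. Of 41345 probe sets, 23521 had 1 symbol, and gene values are the mean of a gene's single-symbol probe sets (22180 genes). Groups were compared in limma 3.58.1 (R 4.3.3; lmFit, eBayes, two-sided) on all genes, with Benjamini-Hochberg adjustment over all of them and calls under 0.05. The members and gene lists were chosen with earlier results of these data known. The text names all 10 members, up to 4 called genes per list and direction, and the 12 most alike genes by r; others were named after their values were seen. Alternatives were other normalizations, filters and eBayes settings, array weights, a replicate block, covariates, thresholds, and leaving out each mouse. The fit was tested on simulated data. Promoter windows came from RefSeq (GRCm38.p6). Tables and figures used Python 3.11.15, pandas 2.3.3 and matplotlib 3.10.9. The precision is limited by the number of arrays.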

Additional observations from a re-analysis of the deposited data

Results flagged for a closer look

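Of 118 groups of 5 values examined for a value far from the rest of its group, 5 had one, where chance gives about 1 in 20. Sp7 in exposed mouse 3 was 5.63, against 4.88 to 5.00 in the other exposed mice. Adamts4 in exposed mouse 3 was 6.47, against 5.41 to 5.54, and the mean of the chondroitin sulfate synthesis genes in that mouse was 6.69, against 6.23 to 6.37. Timp3 in exposed mouse 5 was 9.94, against 10.48 to 10.54. The mean of the leukocyte markers in unexposed mouse 5 was 6.73, against 7.22 to 7.39 in the other unexposed mice. Exposed mouse 3 also had the highest Acan value of all mice and exposed mouse 5 the lowest.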

How the results depend on the processing

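Of the 10 cartilage genes, 4 were called lower; this count was 1 with the mouse number as a replicate block (Cnmd, adjusted p = 0.0138; Matn1 0.0538, Matn3 0.0572, Chad 0.0774), 1 at an adjusted p under 0.01, 2 with the mean of the 20 other cartilage genes without Cilp and Prg4 as a covariate, 3 with repeated quantile normalization or with trend and robust settings, and 2 to 7 with a mouse left out. Same-numbered mice deviated together by r of -0.05 to 0.12. Differently numbered mice were not compared, so these values do not decide whether the number pairs the mice. The block lowered the count over all genes from 1102 to 854 lower and from 1298 to 1026 higher. The median change of the 10 genes was -0.32 with the 20-gene mean without Cilp and Prg4 as a covariate. Of the 20 other cartilage genes, those called lower (1) were 3 with dim genes left out, 5 with array weights and 0 with the block. They were 4 with the 20-gene mean or Acan as a covariate, 0 under 0.01, and 0 to 9 with a mouse left out. Each of these 20 genes is itself part of the 20-gene mean, so its fit with that covariate is circular. The same holds for Col2a1 and Col11a1 with the mean without Cilp and Prg4. Regulators called lower (3) were 1 under 0.01 and 2 at a fold of 1.5. They were 2 with the block and 2 with the mean without Cilp and Prg4, where Zbtb20 lost its call in limma (adjusted p 0.0667 and 0.115). They were 4 with dim genes left out or with array weights, and 2 to 4 with a mouse left out. Hypertrophy genes called lower (1) were 0 under repeated quantile normalization, median centring, dim genes left out, the block, each covariate and 0.01, and 0 to 2 with a mouse left out; those called higher (1) were 0 under quantile normalization, the block, 0.01 and a fold of 1.5, and 0 to 2 with a mouse left out. Sulfate synthesis genes called lower (1) were 2 with array weights, 0 at a fold of 1.5 and 1 to 2 with a mouse left out; those called higher were 0 to 1. Degradation genes called higher (5) were 2 with the 20-gene mean without Cilp and Prg4 and 2 under 0.01, and 3 to 6 with a mouse left out. The sign turned, with no call, for Acan (0.069), Sox9 (0.05), Trps1 (0.082), Chst5 (0.02) and Col2a1 (0.1) with the 20-gene mean as a covariate, for Trps1 (0.056) and Col2a1 (0.028) with Acan, and, without Cilp and Prg4, for Acan (0.37), Sox9 (0.19), Hapln1 (0.00046), Col10a1 (0.21), Col11a1 (0.11), Trps1 (0.15), Chst5 (0.12) and Col2a1 (0.34). The cause of these moves was not tested. Each of the 10 cartilage genes had 1 probe set, so using each probe set by itself, or the brightest one, left their values as they were. No detection limit was set for low values.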
